A study of Mus musculus with 23 samples.

Results

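The genes of the cytosolic ribosomal proteins were followed through the 8 deposited peak lists of H3K27ac and H3K27me3. They were chosen by symbol, without use of any measured value, as the protein-coding genes of GENCODE M21 named Rpl or Rps with a digit, together with Rplp0, Rplp1, Rplp2 and Rpsa and without the Rps6k kinases. The rule found 92 of 21938 protein-coding genes. Of these, 77 are core genes, 46 for proteins of the large subunit and 31 for proteins of the small subunit, and the other 15 are paralogs, like-named genes and 6 genes whose symbol ends as a pseudogene's does.

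The cells came from the cerebral cortex of embryos of the Tg(Ebf2-EGFP)FB58Gsat mouse line, a transgene that all groups carried and in which regulatory sequence of Ebf2 drives EGFP. They were sorted by fluorescence into Ebf2-EGFP+ cells on embryonic days E11.5, E13.5 or E15.5, and into Ebf2-EGFP- cells on the first of these days alone. By the study's account the E11.5 Ebf2-EGFP+ cells were mainly preplate neurons, the E15.5 Ebf2-EGFP+ cells mostly Cajal-Retzius neurons and the E11.5 Ebf2-EGFP- cells mostly progenitors. The 15 ChIP samples fell into 8 groups of 2 libraries each, apart from H3K27ac in E11.5 Ebf2-EGFP- cells with 1 library, and 8 input samples made up 4 more groups, for 23 samples in 12 groups. Each ChIP group had 1 list, so no difference between lists could be tested, and all comparisons are descriptions. A sorted population is a mixture, and a mark in a part of the cells cannot be told apart from a weaker mark in all of them.

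A ribosome is built from ribosomal RNA and about as many proteins as there are core genes, each present once in nearly every particle, with the stalk proteins as the main exception. All growing and secreting cells transcribe these genes strongly, and their messages often open with a run of pyrimidines, the 5′ TOP start, through which mTOR signalling sets their translation. H3K27ac marks active promoters and enhancers, whereas H3K27me3 is the mark that Polycomb complexes lay down at silent genes. Many ribosomal protein genes are short and carry small nucleolar RNAs in their introns.

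Promoter sequence came from RefSeq (GRCm38.p6). The table held 66 of the 92 genes (71.7%), fewer than the 80% needed for shares over the family, so a motif count over the family is void and is not given. The 8 stretches shown instead each from 80 bases before the first transcribed base to 20 bases into the transcript. Rps6 and Rps27 are core genes that were marked, Rps27l and Rpl22l1 are paralogs, and Rpl10, Rpl36a, Rpl39 and Rps4x are the 4 genes of the family on chromosome X. Capitals mark CCGGAAG (ETS factors), AAGATGG (YY1), TATAAA (the TATA box) and GGGCGG (SP1) on either strand, and a TOP start, that is C at the first transcribed base followed by at least 4 more pyrimidines. Positions count the first transcribed base as 1.
Rps6, chr4:86857348-86857447, minus strand: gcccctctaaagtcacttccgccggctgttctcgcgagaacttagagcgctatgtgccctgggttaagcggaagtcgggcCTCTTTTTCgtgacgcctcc
Rps27, chr3:90213629-90213728, minus strand: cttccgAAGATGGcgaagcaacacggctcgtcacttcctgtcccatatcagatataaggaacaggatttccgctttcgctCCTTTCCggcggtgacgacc
Rps27l, chr9:66946006-66946105, plus strand: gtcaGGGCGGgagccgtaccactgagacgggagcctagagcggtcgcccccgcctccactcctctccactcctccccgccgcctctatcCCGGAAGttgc
Rpl22l1, chr3:28805428-28805527, plus strand: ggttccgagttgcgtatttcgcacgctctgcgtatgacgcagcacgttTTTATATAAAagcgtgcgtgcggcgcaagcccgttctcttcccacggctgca
Rpl10, chrX:74270736-74270835, plus strand: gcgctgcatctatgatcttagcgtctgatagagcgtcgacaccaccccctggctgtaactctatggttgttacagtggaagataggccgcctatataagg
Rpl36a, chrX:134585574-134585673, plus strand: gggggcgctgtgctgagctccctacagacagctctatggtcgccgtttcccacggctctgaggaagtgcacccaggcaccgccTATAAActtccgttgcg
Rpl39, chrX:37085203-37085302, minus strand: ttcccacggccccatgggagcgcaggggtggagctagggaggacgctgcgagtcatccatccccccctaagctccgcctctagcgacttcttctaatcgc
Rps4x, chrX:102189372-102189471, minus strand: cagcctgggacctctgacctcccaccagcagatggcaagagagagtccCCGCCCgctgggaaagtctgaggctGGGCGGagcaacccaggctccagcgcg

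Rps6 and Rps27 have a TOP start at the RefSeq start, a feature of 2.51% of the 32851 promoters in the table. Rplp0, a marked core gene that was searched in the same way and is not printed, held none of the 5 patterns in its window. Rps27 also holds AAGATGG from position -74, a motif that 6.34% of the promoters hold over their 300 bases. Its paralog Rps27l has neither of these and holds GGGCGG (35.7% of promoters) and CCGGAAG (8.86%). Rpl22l1 has TATAAA on both strands, overlapping, from position -32, against 13.6% of promoters with the motif. Among the X-linked genes Rpl36a has TATAAA from position 4, after the first transcribed base and so not upstream of the start. Rps4x has GGGCGG on both strands, and Rpl10 and Rpl39 hold none of the 5 patterns in these windows. The RefSeq start lay 180 bp downstream of the GENCODE start for Rpl39, 72 bp for Rpl22l1 and 45 bp for Rps6, and within 4 bp for the other 5.

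A stretch of Rpl22 is shown because peaks of both marks and of both E11.5 populations covered the same bases, although other stretches of the family were covered by as many lists or more. In an intron of Rpl22, which encodes an RNA-binding protein of the large subunit, the H3K27me3 peaks of E11.5 Ebf2-EGFP- and E11.5 Ebf2-EGFP+ cells met the H3K27ac peaks of E11.5 and E15.5 Ebf2-EGFP+ cells. The common 125 bases start 421 bp downstream of the TSS and overlap no exon. They are 69.6% G and C, with 11 CpG pairs, shown in capitals.
Rpl22, chr4:152326163-152326287, plus strand, GRCm38: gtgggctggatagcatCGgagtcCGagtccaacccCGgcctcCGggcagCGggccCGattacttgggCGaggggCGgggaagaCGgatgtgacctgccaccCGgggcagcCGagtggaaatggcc

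The lists differed in length. H3K27ac peaks numbered 1386 in E11.5 Ebf2-EGFP- cells and between 25793 and 102881 in the Ebf2-EGFP+ lists, and H3K27me3 peaks numbered 48963 in E11.5 Ebf2-EGFP- cells and between 1438 and 6721 in the Ebf2-EGFP+ lists. The sequencing depth behind them is unknown. Marker genes did not clearly bear out the label of the E11.5 Ebf2-EGFP- cells. In that list 48.2% of all protein-coding genes had H3K27me3, and 2 of 3 interneuron markers did. H3K27me3 was listed there at 4 of 6 Cajal-Retzius genes (Trp73, Ebf2, Lhx1 and Lhx5) and 2 of 4 early neuron genes (Tbr1 and Nhlh2), and the latter pair had H3K27ac there as well. Of the Cajal-Retzius genes 1, Reln, had H3K27ac in that list, which marked 4.17% of all protein-coding genes. Of 5 progenitor markers, in E11.5 Ebf2-EGFP- cells none carried H3K27ac and 3 (Sox2, Hes1 and Nes) had H3K27me3 there, whereas 4 carried H3K27ac in Ebf2-EGFP+ cells of that stage. Cajal-Retzius markers had H3K27ac at 5, 6 and 4 of 6 genes in the Ebf2-EGFP+ lists in order of stage. Early neuron genes had it at 3 of 4 at each stage, and progenitor markers at 4, 5 and 3 of 5. All protein-coding genes stood at 49.9%, 60.9% and 52.3% in these lists. Markers of interneurons (2 of 3 at each stage) and microglia (1, 2 and 2 of 3) had H3K27ac as well, with endothelial (1, 1 and 0 of 3) and red cell markers (0, 2 and 1 of 3) less covered. Their part in the results was not tested. Hox genes, the textbook targets of Polycomb and a list added after the data had been seen, had H3K27me3 at 28 of 39 starts in E11.5 Ebf2-EGFP- cells and at 0, 24 and 7 in the Ebf2-EGFP+ lists in order of stage. The corresponding counts of H3K27ac were 15, 38 and 13 in the Ebf2-EGFP+ lists and 0 in the Ebf2-EGFP- list. A gene without a peak in a short list may lie below what the caller could list.

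Ribosomal protein genes carried H3K27ac at most of their starts in Ebf2-EGFP+ cells, and hardly any in the E11.5 Ebf2-EGFP- list. Within 5 kb of the TSS, 70 of 92 genes had a peak at E11.5 (76.1%, Wilson 95% interval 66.4 to 83.6), beside 49.9% of all protein-coding genes. At E13.5 the number was 64 (69.6%, 59.5 to 78.0) beside 60.9%, and at E15.5 it was 81 (88.0%, 79.8 to 93.2) beside 52.3%. The E11.5 Ebf2-EGFP- list marked 2 genes (2.17%, 0.598 to 7.58) beside 4.17%. The family thus stood above the genome at E11.5 and E15.5 and near it at E13.5, where the interval holds the share of all genes. The intervals cover counting over genes only, and neither libraries nor animals.

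H3K27me3 showed the reverse arrangement between the sorted populations. In E11.5 Ebf2-EGFP- cells 51 genes had a peak within 5 kb (55.4%, 45.3 to 65.2), close to the 48.2% of all genes. In Ebf2-EGFP+ cells 5 genes were marked at E11.5 (5.43% beside 4.92%), 6 at E13.5 (6.52% beside 9.31%) and none at E15.5 (interval up to 4.01%, beside 1.06%). All 4 shares of H3K27me3 had intervals that hold, or reach, the share of all genes.

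The narrower window of 1 kb kept most of the H3K27ac of E11.5 and E15.5. Peaks lay within 1 kb of 62 genes at E11.5 (67.4% beside 40.6%) and of 76 at E15.5 (82.6% beside 46.0%), whereas 45 were left at E13.5 (48.9% beside 44.5%). In E11.5 Ebf2-EGFP- cells 1 gene, Rps27l, kept H3K27ac (1.09% beside 3.63%) and 37 kept H3K27me3 (40.2% beside 36.2%). H3K27me3 was within 1 kb of 2 genes at E11.5 (2.17% beside 1.89%), 3 at E13.5 (3.26% beside 5.34%) and none at E15.5 (beside 0.451%) in Ebf2-EGFP+ cells.

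**Figure D1:**
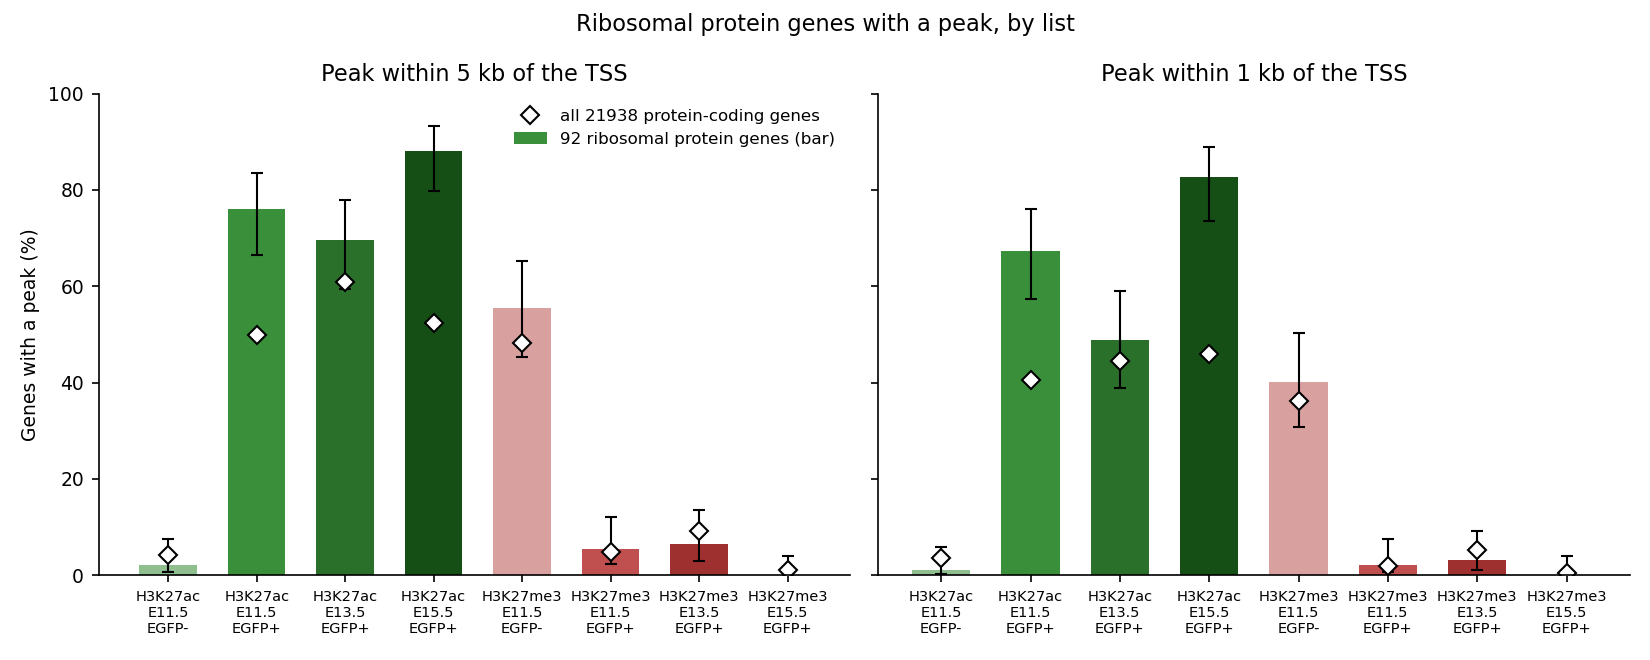
Percentage of the 92 ribosomal protein genes with a peak within 5 kb (left) and 1 kb (right) of the TSS in each of the 8 lists. Bars are the family, whiskers its Wilson 95% interval over genes, and open diamonds all 21938 protein-coding genes, and the bars of H3K27ac at E11.5 and E15.5 in EGFP+ cells stand above their diamonds in both windows.

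The shares depended on which peaks were counted. When each H3K27ac list was limited to its 1386 widest peaks, 4 genes were marked in E11.5 Ebf2-EGFP+ cells (4.35% beside 6.25% of all genes), 1 at E13.5 (1.09% beside 1.39%) and 6 at E15.5 (6.52% beside 6.87%), with 2 in E11.5 Ebf2-EGFP- cells as before. Peaks of at least 300 bp gave 48.9% of the family beside 28.9% of all genes at E11.5, 21.7% beside 23.0% at E13.5 and 85.9% beside 42.6% at E15.5. With the 1386 widest peaks the family was thus no longer above the share of all genes, whereas with the 300 bp minimum it still was at E11.5 and E15.5.

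Within the family H3K27ac was listed at a larger share of the core genes than of the other genes in the Ebf2-EGFP+ lists. At E15.5 74 of 77 core genes were marked (96.1%, 89.2 to 98.7), at E11.5 67 (87.0%) and at E13.5 57 (74.0%), whereas 7, 3 and 7 of the other 15 genes were marked in the same lists. The subunits were alike at E11.5, with 40 of 46 genes of the large subunit (87.0%) and 27 of 31 of the small subunit (87.1%), and at E15.5, with 44 and 30. At E13.5 38 genes of the large subunit (82.6%, 69.3 to 90.9) and 19 of the small subunit (61.3%, 43.8 to 76.3) were marked, and these intervals overlap. H3K27me3 in E11.5 Ebf2-EGFP- cells lay at 26 (56.5%) and 20 (64.5%) of them.

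The 3 core genes without H3K27ac at E15.5 were Rpl36a, Rpl39 and Rps4x, and all of them lie on chromosome X. Rpl36a and Rpl39 encode small proteins of the large subunit and Rps4x one of the small subunit, and none of the 3 had a peak of either mark in any list. Rpl10, the other X-linked gene of the family, encodes a protein that joins the large subunit late in its assembly. It had a 176 bp H3K27ac peak at E13.5, 2 peaks of 308 and 225 bp before and after its start at E15.5, and no other peak. Chromosome X was sparsely marked as a whole, since H3K27ac lay at 184 (19.4%), 262 (27.6%) and 293 (30.9%) of its 948 protein-coding genes in the Ebf2-EGFP+ lists in order of stage, beside 0, 1 and 1 of the 4 ribosomal protein genes. With 4 genes the interval of the last share ran from 4.56% to 69.9%.

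**Figure D2:**
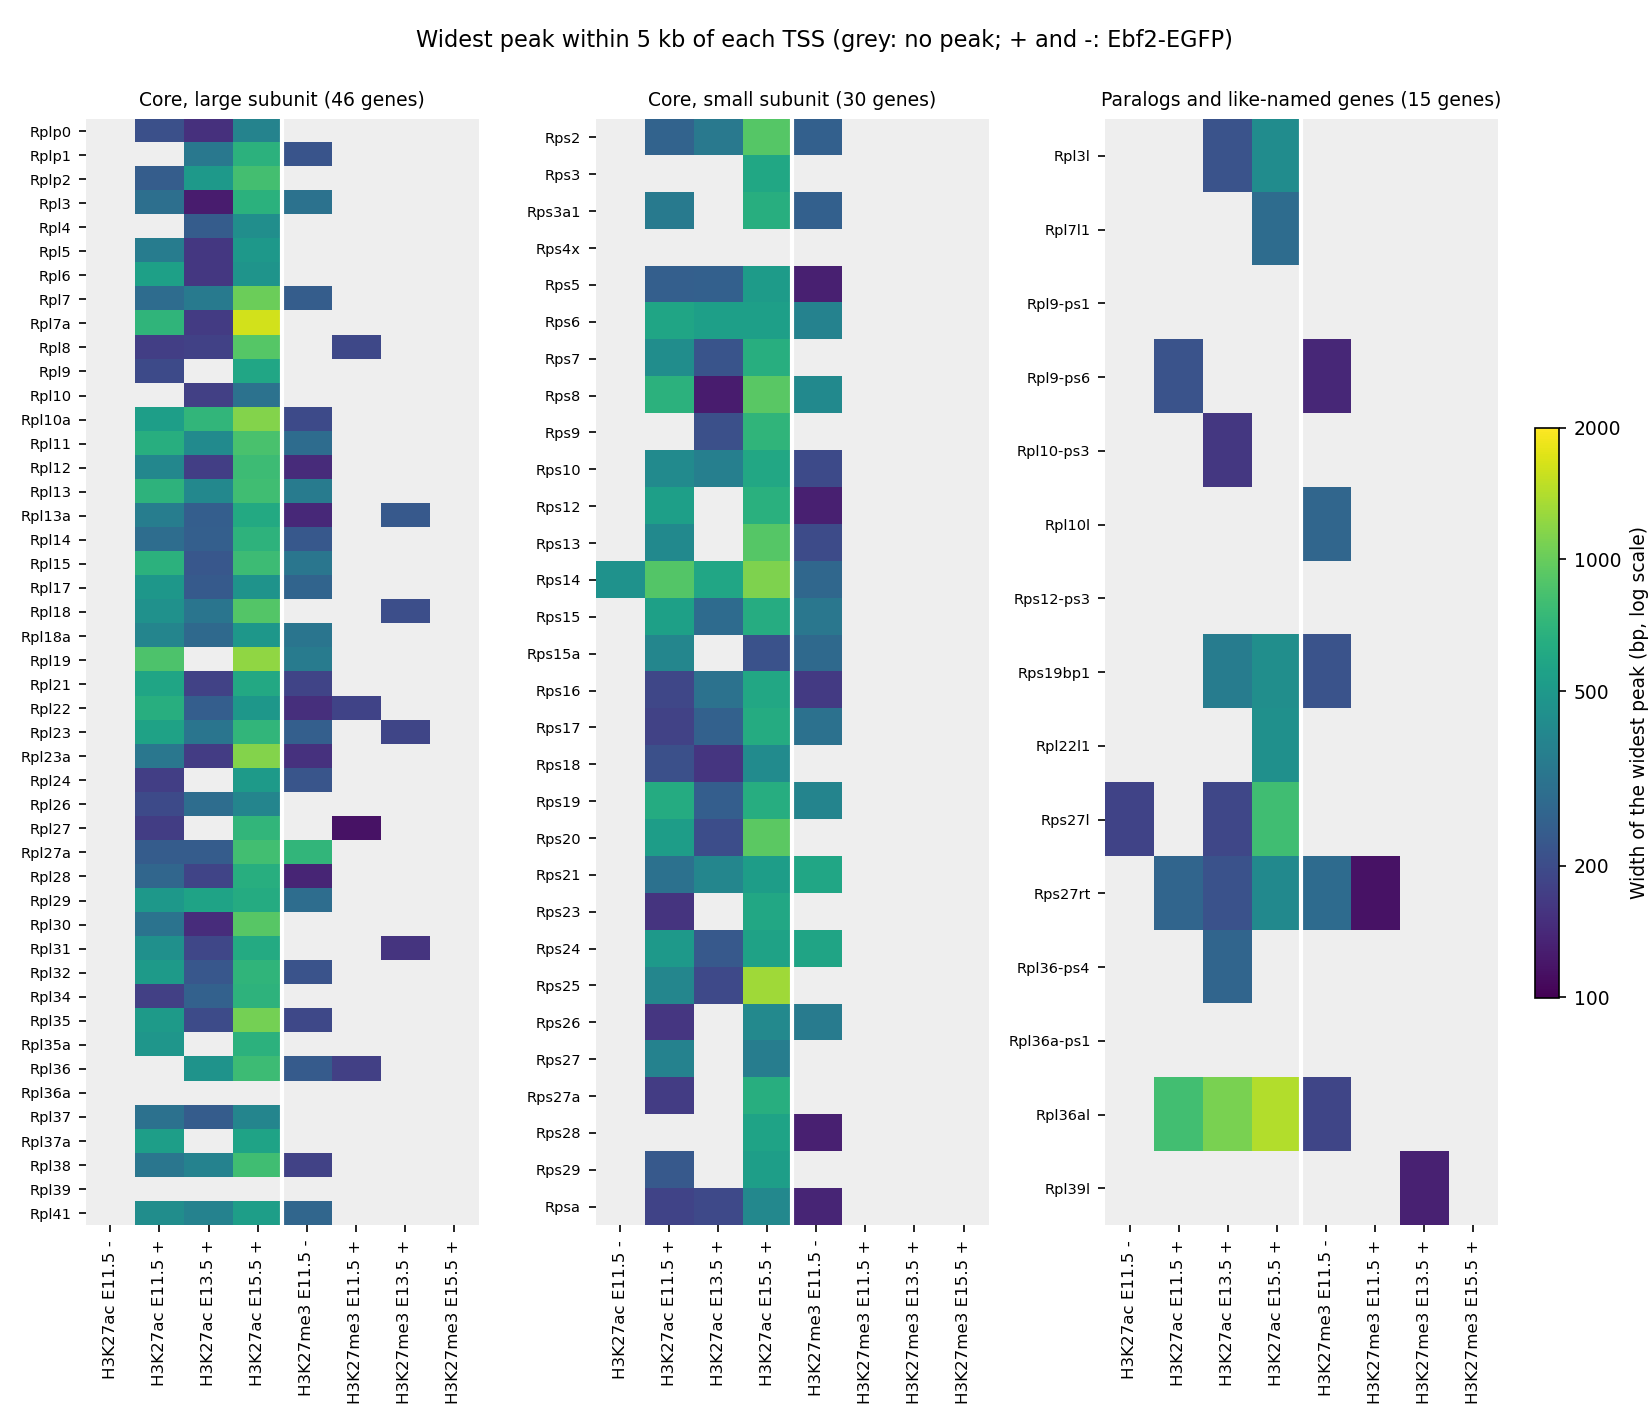
Width of the widest peak within 5 kb of the TSS for 91 of the 92 genes (rows) in each list (columns, with + and - for Ebf2-EGFP), on a logarithmic colour scale in bp, with grey where no peak was listed. The H3K27ac column of E15.5 is filled for all core genes but Rpl36a, Rpl39 and Rps4x, those of E11.5 and E13.5 have gaps, the H3K27me3 column of EGFP- cells is filled for 50 of the genes drawn, and the remaining columns are nearly empty.

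Within 5 kb most genes had H3K27ac at every stage, though not always at the same site. All 3 Ebf2-EGFP+ lists marked 54 genes (58.7%, 48.5 to 68.2), beside 33.1% of all protein-coding genes, and 52 of the 54 are core genes. With the 1 kb window the share was 38.0% beside 24.0%. The peaks of E11.5 and E13.5 overlapped in 39 of 54 genes (72.2%, beside 71.8% over all genes). Overlap of E13.5 with E15.5 was found in 52 of 62 (83.9% beside 77.9%), and of E11.5 with E15.5 in 64 of 69 (92.8% beside 88.8%). Of the 70 genes marked at E11.5, 69 were marked at E15.5 (98.6%, 92.3 to 99.7), compared with 80.2% of the genes of the genome marked at E11.5. The exception was Rpl9-ps6, whose peak was centred at -4568 bp from the start. No gene of the family was marked at E11.5 and E13.5 without E15.5, beside 7.43% of all genes.

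A gap at E13.5 was the most frequent departure. It was found in 15 genes (16.3%, beside 6.93% of all protein-coding genes), all of them core: Rpl9, Rpl19, Rpl24, Rpl27, Rpl35a, Rpl37a, Rps3a1, Rps12, Rps13, Rps15a, Rps23, Rps26, Rps27, Rps27a and Rps29. Rpl19 had peaks over its start of 870 bp at E11.5 and 1159 bp at E15.5 and none between, with a further upstream peak at the neighbouring Cacnb1 in both lists. Rpl24, whose loss of dosage gives the Belly spot and tail mouse, had 174 and 514 bp, and Rps27a, made as a fusion with ubiquitin, had 171 and 658 bp. The E13.5 list was also the one with the most peaks.

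Other genes were marked late or once. Rpl4, Rpl10, Rpl36, Rplp1, Rps9, Rpl3l, Rps19bp1 and Rps27l were marked at E13.5 and E15.5 (8.70% of the family beside 8.15% of all genes), and Rps3, Rps28, Rpl22l1 and Rpl7l1 at E15.5 alone (4.35% beside 4.09%). Both shares were near those of all genes. Rps3, which also acts in DNA repair, had a single peak of 596 bp, and Rps28 one of 569 bp over its start. Rpl10-ps3 and Rpl36-ps4 were marked at E13.5 alone (2.17% beside 12.3%), each from over 1 kb upstream.

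Peak width was the single measure of size in the lists, since the deposited score was 0 throughout. The widest peak at a marked gene had a median of 383.5 bp at E11.5 (95% interval 307 to 450, 70 genes), 238.5 bp at E13.5 (213 to 266, 64 genes) and 638 bp at E15.5 (600 to 689, 81 genes). The medians over all marked protein-coding genes were 342, 255 and 582 bp, so the family followed the order of the lists. Among the 54 genes marked at all stages the E15.5 peak was the widest of the 3 in 50 (92.6%), compared with 78.8% of the 7263 protein-coding genes so marked. The E13.5 peak was the narrowest in 37 (68.5%, compared with 64.8%).

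**Figure D3:**
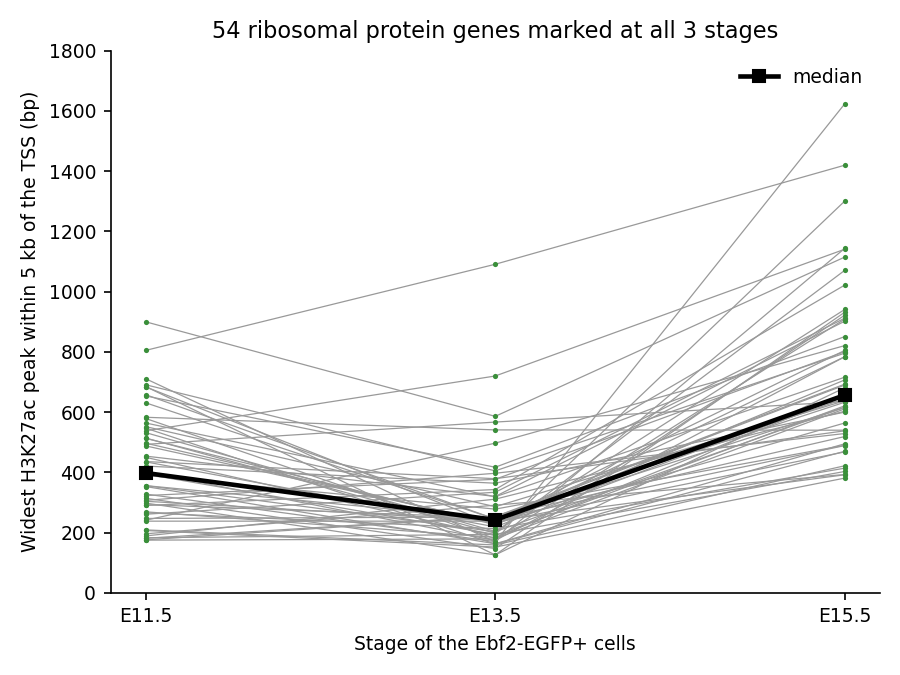
Width in bp of the widest H3K27ac peak within 5 kb of the TSS in Ebf2-EGFP+ cells at the 3 stages, for the 54 ribosomal protein genes marked at all 3 stages. Thin lines are genes and black squares their medians of 398, 242 and 656.5 bp.

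The widest peaks belonged to a few loci. Rps14, a small subunit protein known from the 5q- syndrome, had the widest of the family in both E11.5 lists (463 bp in Ebf2-EGFP- and 900 bp in Ebf2-EGFP+ cells), and 586 bp at E13.5 and 1115 bp at E15.5. All 4 peaks were intronic by the annotation, centred between 1149 and 1430 bp into a gene of 31449 bp. The start of Ndst1 also lay within the window, so these peaks cannot be given to either gene. With the nearest protein-coding TSS alone, the Ebf2-EGFP- peak was not counted for Rps14. Rpl36al had the widest at E13.5 (1091 bp), with 805 bp at E11.5 and 1420 bp at E15.5. Mgat2, a glycosyltransferase gene, has its start within 5 kb of it, so that peak cannot be given to either gene. Rpl7a, of the large subunit, had the widest at E15.5, 1624 bp at chr2:26910142-26911765 over its start and exons, with 711 bp at E11.5. The start of Med22 also lay within the window, so these peaks cannot be given to Rpl7a alone. At E13.5 the one peak of Rpl7a was 169 bp wide and centred at -4830 bp. Rpl27a led H3K27me3 in E11.5 Ebf2-EGFP- cells with 721 bp, and Rpl8 (192 bp) and Rpl13a (230 bp) led it in Ebf2-EGFP+ cells at E11.5 and E13.5.

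Peaks sat downstream of the start. At E15.5 72.8% of the 92 genes were covered by a peak 250 bp into the gene, 40.2% at the TSS and 16.3% 300 bp before it. The corresponding top was 46.7% at E11.5, also at 250 bp, and 25% at E13.5, at 150 bp. Over all protein-coding genes the tops were 36.5%, 25.1% and 18.2%, at 200, 200 and 150 bp. H3K27me3 in E11.5 Ebf2-EGFP- cells had its top of 18.5% at 350 bp, beside 15.1% at 200 bp over all protein-coding genes. Of the 115 E15.5 peaks at the family, counted per gene, 80 overlapped an exon, 3 lay in an intron and 32 outside the gene, whereas 55 of 121 lay outside the gene at E13.5.

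**Figure D4:**
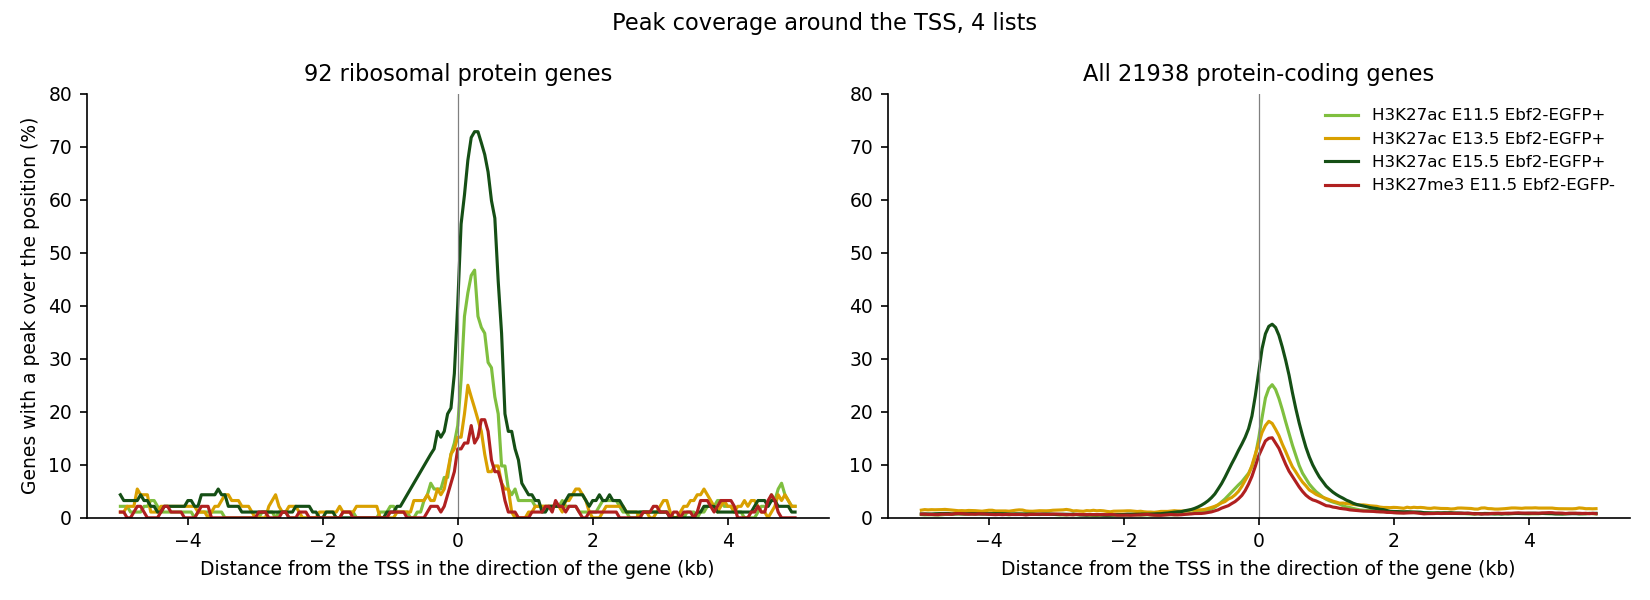
Percentage of genes with a peak over each position from 5 kb before to 5 kb after the TSS, in steps of 50 bp, for the 92 ribosomal protein genes (left) and all protein-coding genes (right), in the 4 longest lists. All 4 curves of the family peak between 150 and 350 bp downstream of the TSS, and H3K27ac at E15.5 reaches 72.8%.

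H3K27me3 of E11.5 Ebf2-EGFP- cells and H3K27ac of E11.5 Ebf2-EGFP+ cells met at the same genes. The pair was present at 46 of the 92 genes, beside 34.8% of all protein-coding genes. Among the 51 genes with H3K27me3 in the former cells 90.2% (79.0 to 95.7) had H3K27ac in the latter, and among the 41 without it 58.5% (43.4 to 72.2). Over all genes these shares were 72.3% and 29.1%. The peaks of both lists overlapped by at least 1 bp in 43 of the 46 genes (93.5%, compared with 75.1% over all genes), and with at least 50% of each peak shared in 43.5%. Rps6, the substrate of S6 kinase, had a 379 bp H3K27me3 peak over its start, overlapping a 583 bp H3K27ac peak just inside the gene. Rpl11 had a 290 bp H3K27me3 peak lying inside a 654 bp H3K27ac peak. Within the E11.5 Ebf2-EGFP- cells, 50 genes had H3K27me3 alone (54.3% beside 44.7% of all genes), 1 had H3K27ac alone (1.09% beside 0.752%) and 40 had neither (43.5% beside 51.1%).

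Both marks in the same cells were uncommon. In E11.5 Ebf2-EGFP- cells Rps14 had both (1 gene beside 3.42% of all genes), and the peaks overlapped. With the nearest protein-coding TSS alone no gene of the family had both there (0% beside 3.02%). In E11.5 Ebf2-EGFP+ cells Rpl8, Rpl22, Rpl27 and Rps27rt had both (4.35% beside 3.56%), with overlap at Rpl8 and Rpl22. At E13.5 5 genes had both (5.43% beside 8.39%), among them Rpl13a, Rpl18 and Rpl23, where the peaks overlapped, and Rpl31, where they did not, and at E15.5 no gene had (beside 0.752%). Rpl36 at E11.5 and Rpl39l at E13.5 had H3K27me3 without H3K27ac. The widest H3K27me3 peak at each gene with the mark in Ebf2-EGFP+ cells was between 116 and 230 bp wide, and that of Rps14 in Ebf2-EGFP- cells was 273 bp wide.

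By role, the stalk genes, whose products recruit translation factors, each had their widest H3K27ac peak at E15.5. Rplp0 had widest H3K27ac peaks of 207, 152 and 381 bp in order of stage, and Rplp2 of 241, 497 and 821 bp. All E13.5 peaks of Rplp2 lay outside the gene, centred between -4810 and -3418 bp, with the start of Pidd1 within its window. Rplp1 had 330 and 686 bp at the later stages with 219 bp of H3K27me3 among Ebf2-EGFP- cells. Rpl5 and Rpl11 form the 5S ribonucleoprotein that binds Mdm2 when ribosome assembly fails. Rpl5 had 353, 163 and 495 bp and no H3K27me3, and Rpl11 654, 417 and 851 bp. Rpl3, which reaches towards the peptidyl transferase centre, had 298, 126 and 681 bp, the first of these outside the gene and centred at -1050 bp. Rpl4, which lines the exit tunnel, had no peak at E11.5 and 238 and 438 bp at the later stages. The 438 bp peak lay outside the gene, centred at -617 bp, with the start of Zwilch within the window. On an exon of Rpl4 the E15.5 peak was 414 bp wide.

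Most other named genes had their widest peak at E15.5. Rpl38, known for its part in translating Hox messages, had 323, 377 and 801 bp, Rpl23 had 564, 319 and 716 bp, and Rpl32 had 513, 226 and 707 bp. Rpl41, which encodes a very short peptide, had 436, 379 and 538 bp. These peaks and its 269 bp H3K27me3 peak in Ebf2-EGFP- cells lay outside the gene, centred between 1694 and 1875 bp from its start. The start of Zc3h10 is within its window. On exons of Rpl41 the widest H3K27ac peak was 126 bp at E13.5 and 364 bp at E15.5, with none at E11.5. In the small subunit, Rps19, mutated in Diamond-Blackfan anaemia, had 631, 245 and 645 bp, Rps7 had 435, 219 and 657 bp and Rps2 had 261, 334 and 912 bp. Rpsa, also described as a laminin receptor, had 183, 194 and 403 bp. Rps6 departed from this, with 583, 541 and 540 bp. All of these, apart from Rps7, also carried H3K27me3 in Ebf2-EGFP- cells, from 136 bp at Rpsa to 386 bp at Rps19.

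Paralogs and their parents differed in when they were marked. Rps27, whose promoter is shown above with its TOP start, had H3K27ac at E11.5 (377 bp) and E15.5 (355 bp). Rps27l, a paralog known as a p53 target, had it in E11.5 Ebf2-EGFP- cells (182 bp, chr9:66946317-66946498), at E13.5 (190 bp) and at E15.5 (798 bp). The E11.5 Ebf2-EGFP- peak stood on an exon, 322 bp downstream of the start, and no H3K27me3 was listed there. Rpl22 had 658, 245 and 489 bp, and Rpl22l1, which can replace it, 451 bp at E15.5 alone. Rpl7 had 290, 343 and 1022 bp, and Rpl7l1 290 bp at E15.5. Those of Rpl7 lay outside the gene, centred at -891, -1367 and -568 bp, with the start of Rdh10 within its window. The peak of Rpl7l1 lay in an intron. Rpl3l, the muscle paralog of Rpl3, had 216 bp at E13.5 and a 191 bp peak over its start at E15.5. Its widest peak at E15.5, 430 bp, was centred at -3632 bp, and the start of Ndufb10 lies within its window.

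The X-linked genes have autosomal copies that differed from one another. Rpl36al, on chromosome 12, was marked at all stages, unlike Rpl36a. Rpl10l, a testis gene on the same chromosome, had no H3K27ac and 1 H3K27me3 peak, 268 bp wide, in Ebf2-EGFP- cells, and Rpl39l had 1 H3K27me3 peak of 132 bp at E13.5 just upstream of its start. Rps27rt had all its peaks over 3 kb from its start. Rps19bp1, which encodes a binding partner of Rps19 and no ribosomal protein, had 353 and 441 bp at E13.5 and E15.5. Rpl9-ps1, Rpl36a-ps1 and Rps12-ps3 had no peak in any list.

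The family shares features that were not used to choose it. Its median gene length was 3226.5 bp, against 17425 bp over all protein-coding genes, and 30 of the 77 core genes (39.0%) hold an annotated small nucleolar RNA, against 1.27% of all genes. H3K27ac at E15.5 was listed at 29 of these 30 hosts and at 45 of the 47 other core genes, and at E13.5 at 25 (83.3%, 66.4 to 92.7) and 32 (68.1%, 53.8 to 79.6). Another protein-coding start lay within 5 kb of 35 genes (38.0%, against 19.4%). Core genes with such a neighbour had H3K27ac at E11.5 as often as those without (87.1% of 31 and 87.0% of 46), whereas over all genes the shares were 70.8% and 44.9%. The median G and C content of the family's peaks at E15.5 was 61.9%, against 65.4% for all peaks near a protein-coding start, and 64.9% against 66.5% at E11.5.

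Other genes of the translation machinery resembled the family. Fau and Rack1, which supply ribosomal proteins outside the symbol rule, had H3K27ac at all 3 Ebf2-EGFP+ stages. Mitochondrial ribosomal protein genes were marked at 66.7%, 62.8% and 89.7% of 78 genes in order of stage, translation factor genes at 77.8%, 68.5% and 92.6% of 54, and ribosome biogenesis genes at 74.4%, 76.9% and 82.1% of 39. Proteasome genes, of the machine that degrades proteins, were marked at 26, 31 and 36 of 40. H3K27me3 in E11.5 Ebf2-EGFP- cells lay at between 48.7% and 59.3% of the genes of these 4 lists. No order among the lists was tested.

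Ribosomal protein pseudogenes, mostly processed copies of the messages, went with the E13.5 list. Of 294 such pseudogenes 55 had an H3K27ac peak on the body at E13.5 (18.7%, 14.7 to 23.6), 9 at E11.5 (3.06%), 6 at E15.5 (2.04%) and none in E11.5 Ebf2-EGFP- cells. Other processed pseudogenes, 9942 in number, had 9.49% at E13.5, 3.47% at E11.5 and 2.04% at E15.5. Among the 239 copies over 10 kb from any protein-coding start the E13.5 share was 18.4%, beside 9.23% of the 8421 other processed pseudogenes that far away. H3K27me3 lay on 6.80% of the bodies in E11.5 Ebf2-EGFP- cells, against 4.84% of the others. Reads of a processed copy and its parent can be alike, and how reads with several matches were placed can move peaks between them, which was not tested.

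**Figure D5:**
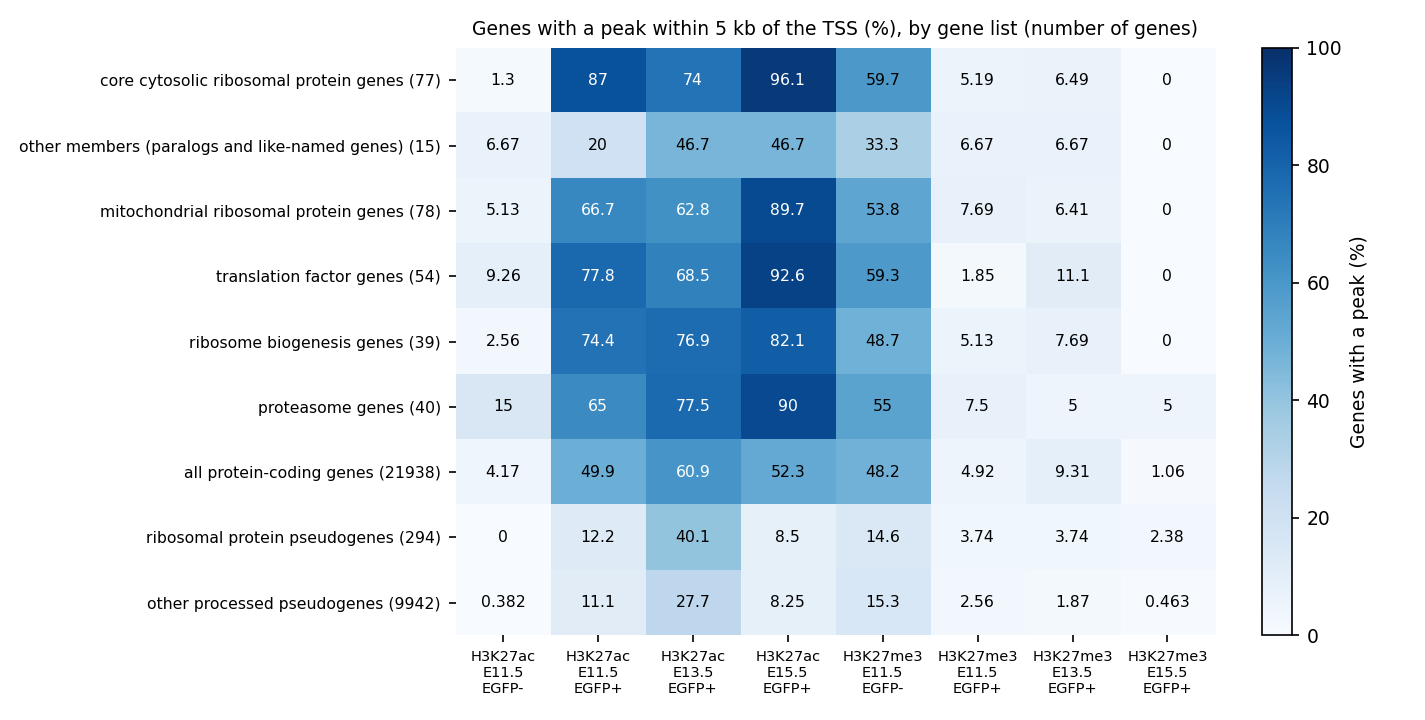
Percentage of genes with a peak within 5 kb of the TSS for 9 gene lists (rows, with the number of genes) in each of the 8 peak lists (columns), with the values printed in the cells. Core and mitochondrial ribosomal protein, translation factor, ribosome biogenesis and proteasome genes are marked at over 60% in the H3K27ac columns of EGFP+ cells, and ribosomal protein pseudogenes reach 40.1% at E13.5. All protein-coding genes stand at 49.9%, 60.9% and 52.3% in the H3K27ac columns of EGFP+ cells in order of stage.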

How the data were processed

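According to the study's methods, chromatin of sorted cells was immunoprecipitated for H3K27ac or H3K27me3, reads were aligned to mm10 with Bowtie 1.1.2 and peaks were called with MACS. How replicates were combined and whether the input was the control are not given in the sources used here. The lists that the authors deposited hold a start and end per peak, and a score that is 0 for every peak, so no height, depth or error could be taken from them.

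Starts were read as counted from 0 and are printed counted from 1. Genes came from GENCODE M21, with the 5′ end as the TSS. A gene was marked when a peak overlapped the window of 5 kb (or 1 kb) on either side. Unless a position is given, widths at single genes are those of the widest peak in the 5 kb window, wherever it lay. Shares carry Wilson 95% intervals (statsmodels 0.14.6) and medians order-statistic intervals. The marking was tested on simulated peaks. Sequences were read with pyfaidx from GRCm38.p6. Named genes were set by role, as paralogs or by fixed rules on marking (no H3K27ac in Ebf2-EGFP+ cells, H3K27ac in E11.5 Ebf2-EGFP- cells, H3K27me3 in Ebf2-EGFP+ cells, the widest peak of a list). Rps4l, also on that list, is no protein-coding gene in M21. Genes, lists and alternatives were chosen with earlier results of these data known. No test was run between lists, as there was 1 per group. Values of some single genes are not reported here, and the counts and shares of the family include every gene of the rule.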

Additional observations from a re-analysis of the deposited data

How the results depend on the processing

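Of the alternatives, the 1 kb window, any annotated transcript start, the nearest protein-coding TSS alone, core genes alone, a minimum width of 300 bp, the widest peaks (1386 of each H3K27ac list and 1438 of each H3K27me3 list, the number in the smallest one) and chromosomes 1 to 19 alone were run. Of the alternative values for shares and widths, 68 stayed within the interval of the reported value and 30 moved. No paired analysis was possible because each group has 1 list, and leaving out each replicate could not be run for the same reason.

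With the 1 kb window the share of the family was 48.9% for H3K27ac at E13.5 and 40.2% for H3K27me3 in E11.5 Ebf2-EGFP- cells. It was 2.17% for H3K27me3 at E11.5 and for both marks at E13.5 in Ebf2-EGFP+ cells, and 0% for both marks in E11.5 Ebf2-EGFP- cells. H3K27ac at all stages was at 38.0%, beside 24.0% of all genes. The pair of H3K27me3 in E11.5 Ebf2-EGFP- and H3K27ac in the Ebf2-EGFP+ cells of that stage was at 34.8%, beside 25.2%. With the nearest TSS the shares were 57.6% for H3K27ac at E13.5, 0% for both marks in E11.5 Ebf2-EGFP- cells and 41.3% for all stages. Beside the last of these stood 27.9% of all genes. With peaks of at least 300 bp, H3K27ac was at 48.9% (E11.5) and 21.7% (E13.5). H3K27me3 was at 15.2% in E11.5 Ebf2-EGFP- cells, beside 16.8% of all genes, and at 0% at E11.5 and E13.5 in Ebf2-EGFP+ cells. Both marks were at 0% in the 3 groups that had any. All stages were at 14.1% beside 10.1%, and the H3K27me3 to H3K27ac pair at 10.9% beside 9.80%. These last 2 shares were thus closer to those of all genes than in the main setting. With the widest peaks, H3K27ac in Ebf2-EGFP+ cells was at 4.35%, 1.09% and 6.52% in order of stage, and H3K27me3 at 3.26% in E11.5 Ebf2-EGFP- and 0% in E11.5 Ebf2-EGFP+ cells. Core genes alone gave 87.0% at E11.5 and 96.1% at E15.5 for H3K27ac. Counting all peaks in place of the widest gave H3K27ac medians of 274, 205 and 568 bp in order of stage. A reciprocal overlap of at least 50% lowered the shares of overlapping peaks of 5 list pairs to between 14.3% and 53.6%.

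The difference from all genes, in percentage points, turned its sign in 11 cases. For H3K27ac it was -1.91 (E11.5), -0.303 (E13.5) and -0.348 (E15.5) with the widest peaks, and -1.24 at E13.5 with peaks of at least 300 bp. For H3K27me3 in E11.5 Ebf2-EGFP- cells it was -1.56 with peaks of at least 300 bp. For H3K27me3 in E11.5 Ebf2-EGFP+ cells it was -2.75 with any transcript start, -0.000793 with the nearest TSS, -0.242 with peaks of at least 300 bp and -1.34 with the widest peaks, and for both marks there -0.150 with peaks of at least 300 bp. For H3K27me3 at E13.5 it was 0.585 with the widest peaks. Fewer peaks enter both of the width alternatives by construction, and the cause of the other turns was not tested.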

Other observations

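At E11.5, of the 48963 H3K27me3 peaks of Ebf2-EGFP- cells, 21.7% overlapped an H3K27ac peak of Ebf2-EGFP+ cells, whereas 2.21% overlapped H3K27me3 there. Of the 1386 H3K27ac peaks of Ebf2-EGFP- cells, 50.4% overlapped an H3K27me3 peak of the same cells and 63.0% an H3K27ac peak of Ebf2-EGFP+ cells. The E13.5 H3K27ac list covered 23243 kb, against 10140 kb at E11.5 and 11207 kb at E15.5.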
